A study of Homo sapiens with 11 samples.

Results

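The short arm of chromosome 8 (8p) was taken as every gene of the RNA tables whose locus lay on chromosome 8 and ended below 43.1 Mb of the human assembly hg19. That rule took in 877 of the 57815 genes listed. Expression along the arm was described for the 229 genes chosen by their level, a mean of at least 1 FPKM (RNA fragments counted per kilobase of a gene's transcript and per unit of all mapped fragments) in any of 3 cell lines. A further 6 short-arm genes entered the test described below without reaching that mean, and 642 did neither. The tables listed 230 of the 877 genes at 0 in all 8 RNA libraries. The expressed genes nearest above the limit were FAM86B3P, at 1.00 FPKM in its highest line, and RP11-134O21.1 at 1.01, and the nearest below it was RP11-363L24.3 at 0.982. HGSNAT, which ended at chr8:43057998, was the last expressed gene inside the arm, and SPIDR, from chr8:48173167, was the next expressed gene beyond it.

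DMS153 and H209 are human lung carcinoma lines, which the title of the series places in small cell lung cancer, a neuroendocrine tumour. MRC5 is a non-cancerous line of lung fibroblasts, and it served here as the reference of both carcinoma lines. All 3 lines were grown in the same medium, with no genetic change or drug named, and each is a single line, so line, cell type and tumour origin cannot be told apart. For RNA, DMS153 and MRC5 had 3 libraries each and H209 had 2, and Hi-C, which counts contacts between distant stretches of chromatin, was run on 1 library of each line.

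The short arm of chromosome 8 is known as one of the arms that carcinomas often lose, and it carries several genes studied as tumour suppressors, among them DLC1, a brake on the GTPase RhoA, and a row of death receptors that bind the ligand TRAIL. Closer to the centromere lies FGFR1, a growth factor receptor whose surroundings are gained in some lung tumours. Domains called from Hi-C are stretches of chromatin whose parts touch each other more than they touch their surroundings, and their boundaries often recur from one cell type to another.

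Marker genes matched the labelled cell types. The summed level of 6 neuroendocrine and epithelial markers, among them INSM1, CHGA and EPCAM, was 918 to 1032 FPKM in DMS153, 1116 to 1118 in H209 and 0.123 to 0.290 in MRC5, where NEUROD1 and INSM1 were listed at 0. That of 7 fibroblast markers, among them COL1A1, DCN and VIM, was 7397 to 8247 FPKM in MRC5, 6.98 to 8.68 in DMS153, where LUM was listed at 0, and 27.3 to 32.3 in H209, most of it from THY1. No group of immune, endothelial or keratinocyte markers summed to more than 33.3 FPKM in any library. The highest sums were those of immune markers in MRC5, almost wholly from CD68 at 22.1 to 33.3 FPKM. No other sum was above 0.918 FPKM. Library depth, estimated from the steps between low values and given relative to MRC5 replicate 1, ranged from 0.948 to 1.65. The confidence limits that the authors deposited for short-arm genes lay a median of 11.1% to 14.7% from values of 1 to 10 FPKM, and of 5.33% to 6.90% from values of 10 FPKM or more.

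Over the arm, more genes were lower than higher in the carcinoma lines, whereas over all genes more were higher, an order that depended on the scaling. Of the 231 short-arm genes tested, 77 (33.3%) fell and 43 (18.6%) rose in DMS153 against MRC5. In the whole table of 19066 genes tested, 16.4% were called lower and 34% higher in the same comparison. In H209 against MRC5, 67 short-arm genes (29.0%) fell and 42 (18.2%) rose, beside 14.9% lower and 33% higher over all genes. Between DMS153 and H209, 29 short-arm genes were higher in DMS153 and 32 lower, beside 13.8% and 13.4% over all genes. A gene was called where limma, fitted on log2(FPKM + 1) over all genes tested, gave a 2-sided p that stayed below 0.05 after Benjamini-Hochberg adjustment and where the change reached 1 on the log2 scale in either direction. Because 1 was added to every value, these fold changes understate those of low genes. A gene could enter the test through the line in which it was high, so the counts describe the genes tested and not all 877. The labels do not say whether the libraries of a line came from separate cultures, and the p-values then measure only the spread between libraries, which may be technical. In bulk RNA, fewer cells that express a gene and less RNA per cell cannot be told apart.

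The median log2 fold change of the short-arm genes tested was −0.37 in DMS153 and −0.12 in H209 against MRC5, beside 0.44 and 0.46 over all genes. Relative to all genes, the median of the arm was −0.80 and −0.58. The split of the calls depended on how libraries were scaled. DMS153 against MRC5 had 44 higher and 98 lower with TPM scaling, 33 and 103 with median ratio scaling, 27 and 112 with quantile normalization, and 51 and 58 when small RNA and mitochondrial genes were left out of the scaling. H209 against MRC5 had 57 higher and 65 lower with TPM scaling, 31 and 94 with median ratio scaling, 28 and 91 with quantile normalization, and 54 and 59 when small RNA and mitochondrial genes were left out of the scaling. Over all genes the order turned with median ratio scaling, to 24.4% higher and 25.4% lower in DMS153 and 20.5% and 24.8% in H209, and in DMS153 with quantile normalization, to 22.2% and 23.2%. DMS153 against H209 had 29 higher and 87 lower with TPM scaling and 18 and 38 with quantile normalization. All short-arm fold changes against MRC5 share the same 3 MRC5 libraries, so the 2 comparisons are given side by side and not as support for each other.

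**Figure D1:**
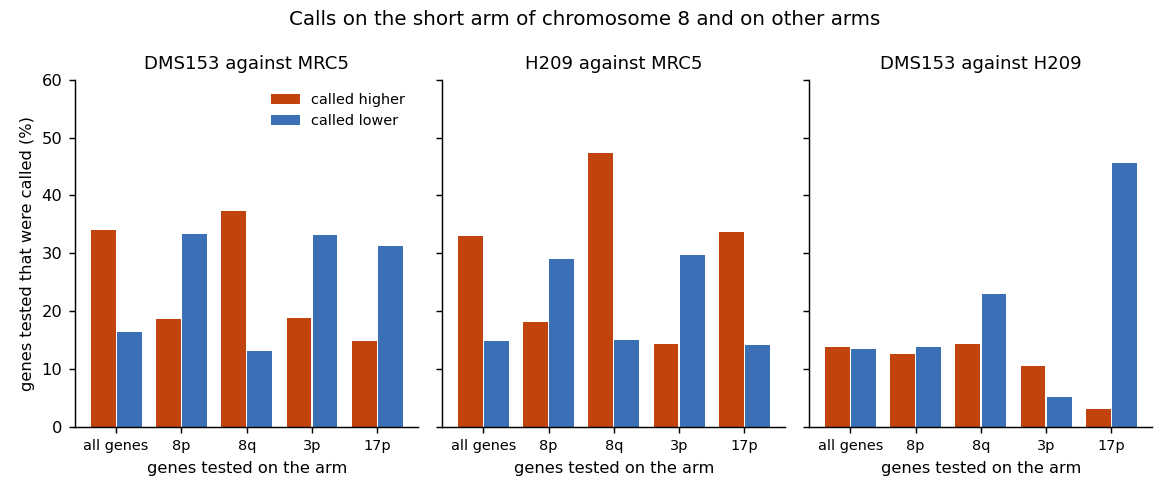
Bars give the share of genes tested (%) that were called higher (red) or lower (blue) in each comparison, for all genes, 8p, 8q, 3p and 17p. On 8p the lower calls outnumber the higher ones in both comparisons with MRC5, 33.3% against 18.6% and 29.0% against 18.2%, while over all genes the order is the opposite, except with the scalings named above.

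On the long arm of the same chromosome the calls lay the other way. Of 448 genes tested on 8q, 37.3% were called higher and 13.2% lower in DMS153 and 47.3% and 15.0% in H209 against MRC5, and its median relative to all genes was 0.10 and 0.43. On 3p, a further arm often lost in small cell lung cancer, the median lay at −0.83 and −0.78 relative to all genes, close to that of 8p in DMS153. On 17p it lay at −0.80 in DMS153 and 0.09 in H209. The shares of these arms are descriptions, and no test of an arm was made, so nothing here is shown to be particular to 8p.

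By call against MRC5, 58 genes of the short arm fell in both carcinoma lines, 26 rose in both and 86 passed in neither. DMS153 alone had 17 higher and 19 lower calls, and H209 alone 16 and 9, which does not show that the lines differed for those genes. By limma, 0 genes were called higher in the one carcinoma line and lower in the other, although 9 had opposite signs with an unadjusted p below 0.05 in both comparisons. Of the 229 expressed genes, 126 reached 1 FPKM in all 3 lines, 23 in MRC5 only and 27 in both carcinoma lines and not in MRC5. None of these joint counts was set beside its share over all genes, so they describe the arm and show nothing particular to it.

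The fold changes varied with position. The arm was divided into 9 windows of 5 Mb, numbered from the telomere, the ninth ending at 43.1 Mb, and genes were placed by their midpoint. In DMS153 against MRC5, window 5 (20 to 25 Mb) had the lowest median, −1.52 relative to all genes over 46 tested genes, with 26 lower and 11 higher calls. Window 7 (30 to 35 Mb) followed at −1.41, with 9 lower and 1 higher call among 18 genes, and window 8 (35 to 40 Mb) at −1.10, with 10 lower and 2 higher among 28. In H209 against MRC5 the same 3 windows were the lowest, at −1.12, −1.46 and −1.34, with 18, 9 and 12 lower calls and 4, 2 and 1 higher ones. Window 6 (25 to 30 Mb) held more higher than lower calls, 11 and 8 in DMS153 and 10 and 7 in H209, an order that turned in 3 and 2 of 6 settings of scaling and pseudocount. The telomeric windows 1 and 2 stood apart from the lowest ones: in H209 they held 5 higher and 1 lower and 8 higher and 1 lower call, with relative medians of 0.00 and 0.49, and in DMS153 they lay at −0.31 and −0.15. Over those 6 settings, the relative medians of windows 5, 7 and 8 stayed between −2.01 and −1.04 in both comparisons, and that of window 2 in H209 stayed above 0, whereas that of window 1 in H209 ranged from −0.13 to 0.23.

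**Figure D2:**
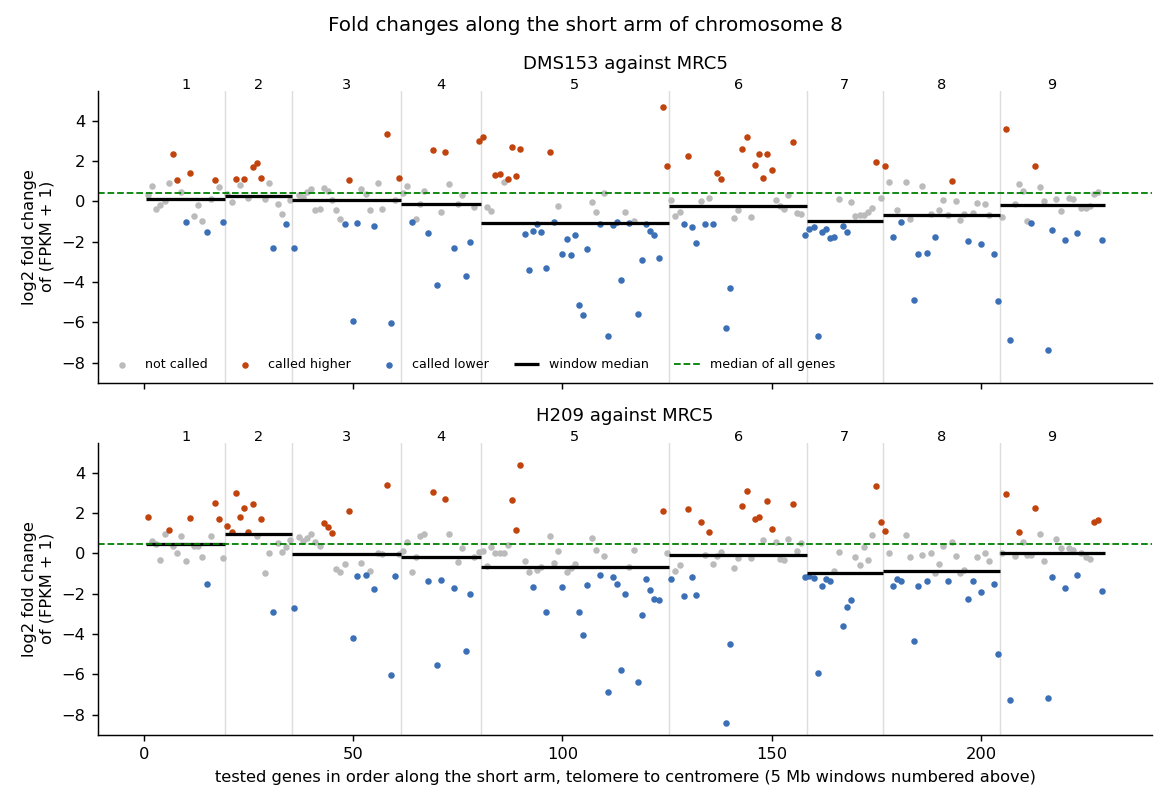
Each point is a tested gene in its order along the arm (x axis) with its log2 fold change of FPKM + 1 against MRC5 (y axis), above for DMS153 and below for H209, with called genes in colour, black bars for window medians and a dashed line for the median of all genes; MIR320A and MIR486, listed at 0 in MRC5, are not drawn. The black bars of windows 5, 7 and 8 lie lowest, and in H209 that of window 2 lies above the dashed line.

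The median level of a window and its median fold change did not always go the same way. In window 5 the median expressed gene stood at 3.11, 2.88 and 3.07 FPKM in the DMS153 libraries, 2.86 and 3.16 in H209 and 8.18, 8.22 and 8.40 in MRC5. In window 8 it stood at 4.39, 4.77 and 4.69 in DMS153, 6.05 and 4.58 in H209 and 14.3, 15.0 and 14.7 in MRC5. The carcinoma libraries lay below all MRC5 libraries in both windows and did not overlap them. A gene could enter these medians through any line in which it was high. Of 45 genes in window 5, 36 reached 1 FPKM in MRC5 and 32 in each carcinoma line. In window 8, of 28 genes, 24 did in MRC5, 25 in DMS153 and 22 in H209. In window 2 the order was the opposite, with 2.05, 1.46 and 1.52 FPKM in DMS153, 2.68 and 3.07 in H209 and 1.10, 1.14 and 1.05 in MRC5. In window 6, where the median log2 fold change was −0.24 in DMS153 and −0.07 in H209, the median level was nonetheless higher in both, at 6.38 to 7.17 FPKM in DMS153, 8.38 and 7.35 in H209 and 4.24 to 4.83 in MRC5. In window 9, by the centromere, DMS153 lay at 7.60 to 8.07, H209 at 8.43 and 9.51 and MRC5 at 9.33 to 11.6, so that H209 and MRC5 overlapped.

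**Figure D3:**
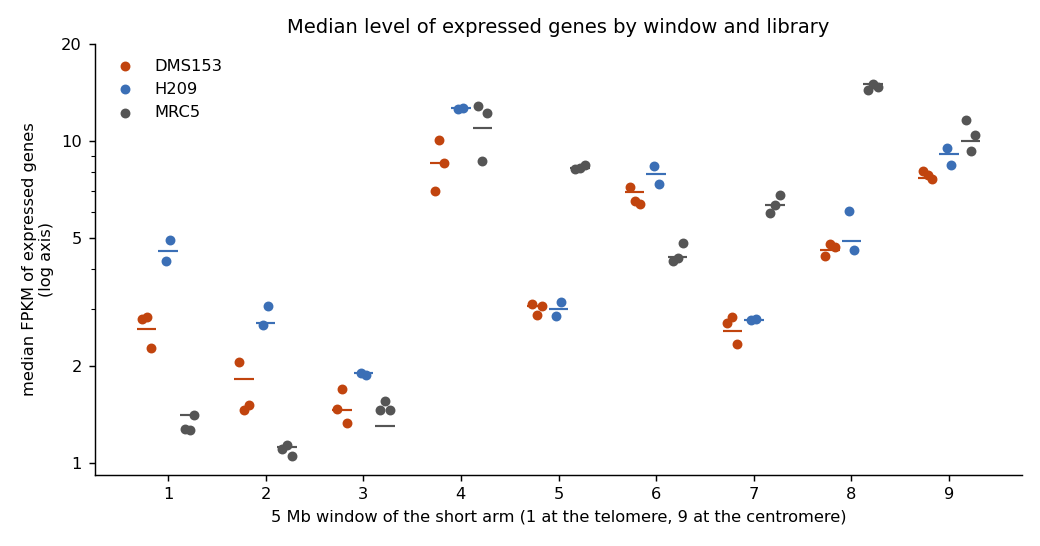
Each point is the median FPKM (log axis) of the expressed genes of a 5 Mb window (x axis) in a single library, and the bars give the median of the line's mean values. MRC5 lies above both carcinoma lines in windows 5, 7 and 8 and below them in windows 1, 2 and 6.

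Several of the genes that fell furthest encode secreted proteins and were high in MRC5; TNFRSF10B, RBPMS and DLC1, described further on, were also among the genes that fell most. PLAT, the tissue plasminogen activator, stood at 177, 199 and 190 FPKM in MRC5, at 0.159, 0.199 and 0.120 in DMS153 and at 0.341 and 0.258 in H209. Its log2 fold change was −7.35 (SE 0.07, limma adjusted p = 2.9e-12) in DMS153 and −7.19 (SE 0.08, adjusted p = 2.2e-11) in H209. SFRP1, a secreted inhibitor of Wnt signalling, stood at 174, 172 and 183 FPKM in MRC5, 0.449 to 0.564 in DMS153 and 0.156 and 0.155 in H209. Both genes were thus close to silent in every carcinoma library. CLU, the secreted chaperone clusterin, stood at 619, 750 and 672 FPKM in MRC5, at 7.56, 6.53 and 9.41 in DMS153 and at 0.675 and 1.34 in H209, and it was higher in DMS153 than in H209 by 2.14 on the log2 scale (SE 0.17, limma adjusted p = 4.1e-06). LOXL2, an enzyme that crosslinks collagen, stood at 265, 299 and 284 FPKM in MRC5 and between 1.98 and 5.69 in the carcinoma libraries. CTSB, the lysosomal protease cathepsin B, also fell from 935, 984 and 942 FPKM in MRC5 to 14.7, 12.1 and 17.5 in DMS153 and 54.9 and 48.9 in H209. CTSB was also lower in DMS153 than in H209, by −1.76 on the log2 scale.

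Of 16 listed matrix and fibroblast genes of the arm, 15 were tested. Of these, 12 fell and 2 rose in each carcinoma line. Beside them, 16.4% of all genes tested fell and 34% rose in DMS153, and 14.9% and 33% in H209. The medians of the listed genes were −3.91 in DMS153 and −3.59 in H209, beside 0.44 and 0.46 over all genes. Those that fell in both lines included BMP1, which cleaves procollagen, STC1, a secreted glycoprotein, SCARA3, a scavenger receptor, and ADAM9, a membrane metalloprotease at 275, 236 and 262 FPKM in MRC5 and 6.80 to 7.66 in the carcinoma libraries. The summed fibroblast markers given above moved with these genes, and their part in the decrease was not tested. Members such as TNFRSF10D, ADAM9 and NRG1 are also counted in other lists below, so the counts of the lists are not independent. All lists were chosen with earlier results of these data known. Both genes that rose were ANGPT2, a ligand of the endothelial receptor TIE2, and DUSP4, a phosphatase of MAP kinases, which stood at 10.6 to 13.1 FPKM in DMS153, 8.38 and 7.35 in H209 and 0.560 to 0.658 in MRC5. The call of ANGPT2 in DMS153 (1.11) was lost with median ratio scaling (0.94) and quantile normalization (0.23). PDLIM2 and SORBS3, adaptors of the actin cytoskeleton, separated the carcinoma lines. PDLIM2 stood at 0.0636 to 0.446 FPKM in DMS153, 5.07 and 4.59 in H209 and 37.0 to 51.5 in MRC5, and SORBS3 at 9.01 to 10.8, 43.4 and 39.1, and 64.4 to 76.3. SORBS3 was lower in DMS153 than in H209 by −1.94 (SE 0.10, limma adjusted p = 2.9e-07), while its difference between H209 and MRC5, −0.75, was not called except with median ratio scaling (−1.49).

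**Figure D4:**
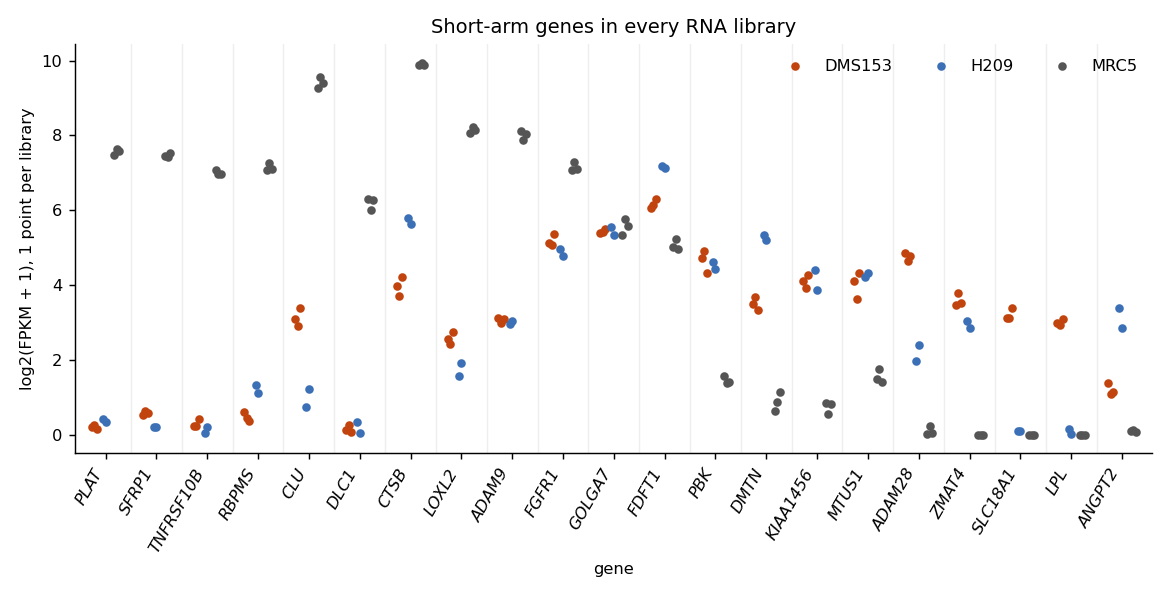
Each point is the log2(FPKM + 1) of a gene (x axis) in a single library, coloured by line. The MRC5 libraries lie far above the carcinoma libraries from PLAT to FGFR1, the lines overlap for GOLGA7, and MRC5 lies below both carcinoma lines from FDFT1 to ZMAT4.

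The 4 receptors of TRAIL lie side by side in window 5, between chr8:22877646 and chr8:23082639. TNFRSF10B, a receptor that carries a death domain, stood at 134, 125 and 124 FPKM in MRC5, at 0.184, 0.181 and 0.353 in DMS153 and at 0.0442 and 0.159 in H209, a log2 fold change of −6.70 in DMS153 (SE 0.08, limma adjusted p = 1.0e-11) and −6.87 in H209. TNFRSF10D, a decoy receptor whose death domain is truncated, stood at 57.7 to 58.3 FPKM in MRC5, at 3.11, 2.60 and 3.07 in DMS153 and at 0.0913 and 0.0349 in H209. TNFRSF10A, the other death receptor, was low throughout, at 2.52 to 4.00 FPKM in MRC5 and 1.5 to 2.67 in DMS153, whose libraries overlapped, and at 0.0872 and 0.0345 in H209. All 4 receptors fell in H209 and 3 of 4 in DMS153, where TNFRSF10A was not called except with quantile normalization. The share of all genes tested that fell was 14.9% in H209 and 16.4% in DMS153. The call of TNFRSF10C, a decoy receptor without a death domain, in DMS153 (−1.01) was lost without DMS153 replicate 1 (−0.94), without MRC5 replicate 3 (−0.89) and when small RNA and mitochondrial genes were left out of the scaling (−0.86). TNFRSF10D and TNFRSF10A were higher in DMS153 than in H209, by 1.88 and 1.53 (limma adjusted p = 1.2e-07 and 6.6e-05). These receptors resemble each other in sequence, so the assignment of fragments among them is uncertain.

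Among 18 listed candidates for tumour suppressors, 15 were tested, of which 5 fell and 2 rose in DMS153 and 6 fell and 2 rose in H209. Their medians, −0.02 and 0.05, lay below the 0.44 and 0.46 of all genes. By share, 16.4% of all genes tested fell and 34% rose in DMS153, and 14.9% and 33% in H209. On the whole arm 33.3% fell and 18.6% rose in DMS153, and 29.0% and 18.2% in H209. The share of the candidates that fell in DMS153 was thus near that of the arm. DLC1 fell from 78.4, 63.4 and 76.4 FPKM in MRC5 to 0.0640 to 0.194 in DMS153 and 0.259 and 0.0264 in H209, a log2 fold change of −6.04 and −6.01 (SE 0.11 and 0.13, limma adjusted p = 9.5e-11 and 3.3e-10). SH2D4A, an SH2 domain adaptor, fell from 31.1 to 32.9 FPKM in MRC5 to 1.01 to 2.01 in DMS153 and to 0.292 and 0.0296 in H209. BNIP3L, a receptor for the removal of mitochondria, fell from 108 to 117 FPKM to 24.6 to 28.4 in the carcinoma libraries. PPP2R2A, a regulatory subunit of a protein phosphatase, fell by 1.25 and 1.17 on the log2 scale, and BIN3 by 1.11 and 1.07. Whether the calls of PPP2R2A and BIN3 hold under other scalings or with a library left out was not examined. The list did not move as a whole. MTUS1, a microtubule-associated protein, rose from 1.68 to 2.39 FPKM in MRC5 to 11.4 to 18.9 in DMS153 and 17.7 and 18.9 in H209. TUSC3, a subunit of the oligosaccharyltransferase, was among the highest genes of the arm in every line, at 85.7 to 99.3 FPKM in DMS153, 74.2 and 72.7 in H209 and 64.2 to 73.1 in MRC5, and was not called. ARHGEF10, TNKS, PINX1, LZTS1 and RHOBTB2 were not called against MRC5 either.

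Around FGFR1, 19 of 21 listed genes were tested, of which 9 fell and 1 rose in DMS153 and 10 fell and 0 rose in H209 by limma, with medians of −0.93 and −1.29 beside 0.44 and 0.46 over all genes. At an unadjusted p below 0.05, 2 were higher in H209, WHSC1L1 and DDHD2. For comparison, 16.4% of all genes tested fell and 34% rose in DMS153, and 14.9% and 33% in H209. FGFR1 itself (chr8:38268656-38326352) stood at 133, 156 and 137 FPKM in MRC5, at 34.0, 32.9 and 40.2 in DMS153 and at 30.4 and 26.7 in H209, a change of −1.97 on the log2 scale (SE 0.10, limma adjusted p = 6.0e-08) and −2.28 (SE 0.11, adjusted p = 6.0e-08). The carcinoma libraries lay below all MRC5 libraries. EIF4EBP1, a repressor of cap-dependent translation, stood at 131 to 162 FPKM in MRC5, 22.5 to 26.5 in DMS153 and 61.7 and 50.02 in H209, and was also lower in DMS153 than in H209. GPR124, a co-receptor of Wnt signalling, fell from 34.8 to 36.5 FPKM to 0.200 to 0.262 in DMS153 and 0.907 and 0.749 in H209. It overlaps BRF2, a subunit of a factor for RNA polymerase III, by 1629 bases, and BRF2 fell as well, by 2.63 and 1.60. WHSC1L1, a histone methyltransferase beside FGFR1, was the single listed gene that rose, to 42.6 to 51.6 FPKM in DMS153 from 19.8 to 23.7 in MRC5. Its log2 fold change of 1.03 was 0.42 with median ratio scaling, 0.62 with TPM scaling and 0.91 with quantile normalization, 0.95 without DMS153 replicate 1 and 0.97 without MRC5 replicate 2, and in these settings it was not called. DDHD2, a phospholipase that overlaps it, was among the most even genes of the arm, at 38.7 to 45.5, 57.1 and 47.6, and 35.7 to 44.6 FPKM. GOLGA7, INTS10 and FNTA were also among them, each with a log2 fold change between −0.30 and 0.08 in the 3 comparisons, although with median ratio scaling FNTA was called lower in H209 than in MRC5 (−1.04).

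The genes that rose most were a mixed group. KIAA1456, a putative RNA methyltransferase, stood at 16.4, 14.2 and 18.1 FPKM in DMS153, 20.3 and 13.7 in H209 and 0.478 to 0.795 in MRC5, a log2 fold change of 3.35 and 3.40 (SE 0.15 and 0.17, limma adjusted p = 2.9e-08 and 7.3e-08). It lies directly beside DLC1, whose change had the opposite sign: KIAA1456 ends at chr8:12889012 and DLC1 starts at chr8:12940870. ZMAT4, a zinc finger protein, stood at 10.1 to 12.8 FPKM in DMS153 and 7.25 and 6.24 in H209 and 0.000388 to 0.00579 in MRC5. ADAM28, a metalloprotease, stood at 28.1, 23.9 and 26.4 FPKM in DMS153, 2.91 and 4.26 in H209 and 0.0145 to 0.170 in MRC5, so each line stood apart from the others. MTMR7, a lipid phosphatase, stood at 8.90 to 10.6, 14.8 and 15.2, and 0.874 to 0.945 FPKM. DMTN, the actin bundler dematin, stood at 10.3, 12.0 and 9.16 FPKM in DMS153, 39.5 and 35.7 in H209 and 0.557 to 1.23 in MRC5, and was lower in DMS153 than in H209 by −1.76 (SE 0.16, limma adjusted p = 8.7e-06). NPM2, a histone chaperone, stood at 13.7 to 16.7 FPKM in the carcinoma libraries and 1.21 to 1.79 in MRC5.

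Of 15 tested genes of cell division and DNA repair, 3 rose and 2 fell in DMS153 by limma. In H209, 5 rose and 0 fell by limma, and 3 were lower at an unadjusted p below 0.05. Their medians, 0.13 and 0.73, lay on either side of those of all genes. Beside these counts, 34% of all genes tested rose and 16.4% fell in DMS153, and 33% and 14.9% in H209. The rises in H209 were thus near the background. PBK, a mitotic kinase, stood at 25.4, 29.0 and 19.1 FPKM in DMS153, 23.6 and 20.8 in H209 and 1.62 to 1.95 in MRC5, a log2 fold change of 3.20 and 3.08 (SE 0.14 and 0.16, limma adjusted p = 2.4e-08 and 8.4e-08). ESCO2, which acetylates cohesin and overlaps PBK, rose by 2.61 and 2.33, and CDCA2, a mitotic targeting subunit of a phosphatase, by 2.26 and 2.2. MCPH1, which acts in chromosome condensation, and GINS4, of the replicative helicase, rose in H209 alone, and MCPH1 was lower in DMS153 than in H209 by −1.08 (SE 0.09, limma adjusted p = 6.4e-06), while GINS4 was not called between them. The call of MCPH1 in H209 (1.06) was lost with median ratio scaling (0.37), with quantile normalization (0.60) and without H209 replicate 1 (0.99), and that between the carcinoma lines with median ratio scaling (−0.94). NEIL2, a DNA glycosylase, and REEP4 fell in DMS153 by 1.10 and 1.51. Whether the call of NEIL2 holds under other scalings was not examined. REEP4 was also called lower in H209 with median ratio scaling (−1.37) and quantile normalization (−1.02). WRN, the helicase of Werner syndrome, stood at 5.52 to 7.21 FPKM in all libraries and was not called.

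Of 20 listed neuronal and neuroendocrine genes, 19 lie on the arm and 9 were tested, of which 5 rose and 2 fell in DMS153 and 3 rose and 1 fell in H209, with medians of 1.28 and 0.01. Over all genes 34% rose and 16.4% fell in DMS153 and 33% and 14.9% in H209, so the counts in H209 were near the background. SLC18A1, the vesicular transporter that loads monoamines into secretory granules, stood far higher in DMS153 than elsewhere, at 7.70, 7.63 and 9.39 FPKM against 0.0717 and 0.0775 in H209, a log2 difference of 3.10 (SE 0.10, limma adjusted p = 1.4e-08), and at most 1.8e-05 in MRC5. LPL, lipoprotein lipase, which lies just before SLC18A1 on the arm, had a like pattern, at 6.70 to 7.62 FPKM in DMS153, 0.118 and 0.0159 in H209 and at most 0.000279 in MRC5. NEFL, the light neurofilament, stood at 2.48, 1.39 and 3.81 FPKM in DMS153 and at most at 0.0137 elsewhere. UNC5D, a netrin receptor, stood at 2.23 to 2.61, 1.25 and 1.11, and 0.0194 to 0.0207 FPKM, and its call in H209 (1.09) was lost with median ratio scaling (0.90) and quantile normalization (0.42). NRG1, a ligand of ERBB receptors, fell from 11.6 to 11.9 FPKM in MRC5 to 4.03 to 5.11 in DMS153 and 0.0582 and 0.0513 in H209. Its call in DMS153 (−1.24) was lost when small RNA and mitochondrial genes were left out of the scaling (−0.96), and it was higher in DMS153 than in H209 by 2.35 (SE 0.10, limma adjusted p = 9.3e-08). PTK2B, a calcium-dependent tyrosine kinase, was higher in DMS153, at 5.26 to 6.26 FPKM, than in H209, at 1.28 and 1.37, which overlapped MRC5 at 1.33 to 1.81. The other 10 listed genes on the arm, among them NEFM and the nicotinic receptor genes CHRNA2, CHRNB3 and CHRNA6, were not tested and reached at most 1.17 FPKM in any line.

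Of 12 tested enzymes of lysosomes and membranes, 3 rose and 5 fell in DMS153 and 2 rose and 5 fell in H209, with medians of −0.62 and −0.53 beside 0.44 and 0.46 over all genes, where 34% rose and 16.4% fell in DMS153 and 33% and 14.9% in H209. FDFT1, squalene synthase, stood at 65.8, 69.7 and 78.0 FPKM in DMS153, 145 and 140 in H209 and 31.6, 36.9 and 30.5 in MRC5. FDFT1 (chr8:11653082-11696818) and CTSB (chr8:11700033-11726957) are neighbours with changes of opposite sign. The call of FDFT1 in DMS153 (1.09) was lost with TPM scaling (0.67) and median ratio scaling (0.46), while that in H209 (2.08) was not. AGPAT5, an acyltransferase, rose by 1.69 in DMS153 and 2.43 in H209, and the lysosomal enzymes ASAH1 and HGSNAT fell by 2.29 and 1.90 in DMS153 and by 1.73 and 1.85 in H209. Of 12 tested kinases, phosphatases and their targets, 4 rose and 7 fell in DMS153 and 3 rose and 4 fell in H209, with medians of −1.18 and −0.49, and the neuronal phosphatase DUSP26 rose most in H209, to 9.80 and 10.7 FPKM from 0.0458 to 0.190 in MRC5. Of 10 tested chromatin and transcription genes, 2 rose and 1 fell in DMS153 and 1 rose and 2 fell in H209, with medians of −0.52 and 0.04. These counts stand beside the same shares over all genes. Of the 9 ADAM genes, only ADAM9 and ADAM28 were tested, and they changed in opposite directions.

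Several loci were near 0 FPKM or seen in only some of the lines. Of 23 listed defensins, antimicrobial peptides of epithelia and neutrophils, 22 were not tested and reached at most 0.333 FPKM in any line. Some are listed as pairs, such as DEFB4A and DEFB4B, and how fragments were assigned within a pair was not examined. DEFB1, the constitutive epithelial defensin, stood at 1.02, 1.15 and 1.52 FPKM in DMS153 and 1.65 and 3.07 in H209 and was listed at 0 in MRC5. The surfactant gene SFTPC averaged at most 0.0045 FPKM in any line. Of the small RNA loci, MIR486, inside ANK1, was listed at 25051, 23613 and 25926 FPKM and MIR320A, just before POLR3D, at 2100, 2024 and 2482 FPKM in DMS153, and both at 0 in H209 and MRC5. Their loci span 0.068 and 0.082 kb, and over so short a locus few fragments give a high FPKM, and the selection of the RNA is not given in the sources used here. Through these entries the arm held 3.33% to 3.61% of the summed FPKM in DMS153, against 0.433% and 0.490% in H209 and 0.953% to 0.992% in MRC5. ANK1 itself, the erythroid ankyrin, stood at 3.72 to 4.71 FPKM in DMS153, 6.86 and 6.12 in H209 and 0.479 to 0.613 in MRC5.

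Some runs of adjacent tested genes were called in 1 direction. They were taken with the deposited scaling only, and no run length was set beside those of other arms. On the whole arm 33.3% of genes tested fell and 18.6% rose in DMS153, and 29.0% and 18.2% in H209. Over all genes tested, 16.4% fell and 34% rose in DMS153, and 14.9% and 33% in H209. The longest run in DMS153 against MRC5 held 8 adjacent tested genes, all lower, from LEPROTL1 to PPP2CB (chr8:29952914-30671830), and 7 of them, from LEPROTL1 to UBXN8, were also lower in H209. RBPMS, an RNA-binding protein, had the largest change of the run, from 135, 152 and 135 FPKM in MRC5 to 0.304 to 0.537 in DMS153 and 1.52 and 1.16 in H209. The others fell by less: DCTN6, a dynactin subunit, from 32.8 to 34.5 FPKM to 11.5 to 13.4 in DMS153 and 15.5 and 14.4 in H209, and GSR, glutathione reductase, from 32.2 to 35.8 FPKM to 11.5 to 12.7 and to 14.9 and 12.1. DCTN6 overlaps LEPROTL1 by 20912 bases. Its call in H209 was lost with TPM scaling (−0.94) and when small RNA and mitochondrial genes were left out of the scaling (−0.90). In window 5, 7 genes from SLC39A14 to C8orf58 fell in DMS153 (chr8:22224762-22461663), and 6 genes from LOXL2 to STC1 fell in both lines (chr8:23154702-23712320). Runs of higher calls were shorter in DMS153, with 5 genes from ZNF395 to EXTL3 and 4 from XPO7 to DMTN. In H209 a run of 7 higher genes lay in window 2 (chr8:6261072-6617184), with MCPH1, ANGPT2, AGPAT5 and 4 unnamed transcripts. ANGPT2 lies wholly within MCPH1, and it stood at 9.5 and 6.18 FPKM in H209, 1.15 to 1.63 in DMS153 and 0.0624 to 0.0877 in MRC5. Of the 229 expressed genes, 99 overlap another expressed gene of the arm, and because the strand of the reads is not given in the sources used here, such genes can share fragments.

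Between the carcinoma lines, the telomeric windows separated most, with medians relative to all genes of −0.63 in window 1 and −0.67 in window 2, against −0.19 to 0.10 in the other 7. KBTBD11, a Kelch domain protein of window 1, stood at 1.12 to 1.47 FPKM in DMS153 and 5.58 and 4.97 in H209, and PNMA2, a neuronal antigen, at 3.25 to 3.71 and at 12.2 and 11.1. In the other direction, PHYHIP stood at 4.37 to 6.10 FPKM in DMS153 and 1.5 and 0.729 in H209, and DOCK5, an exchange factor for Rac, at 4.38 to 6.29 and at 1.31 and 1.44. The call of DOCK5 (1.35) was lost with TPM scaling (0.98).

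The Hi-C lists held 74 domains of the arm in DMS153, 60 in H209 and 58 in MRC5, of 5023, 3987 and 3701 in the whole lists. With 1 Hi-C library per line there is no replicate check, and differences between the lists describe these libraries. Domains were a median of 220 kb long in DMS153 and 280 kb in H209 and MRC5, with whole-list medians of 240, 300 and 300 kb. They ranged from 80 kb to 1580, 1660 and 1740 kb. DMS153 had 11 domains of at most 100 kb and 1 of at least 1 Mb, H209 6 and 5, and MRC5 3 and 3. Domains covered 51.9%, 57.5% and 52.9% of the arm in DMS153, H209 and MRC5, and held 48.0%, 49.3% and 45.9% of the expressed genes. The telomeric windows 1 and 2 held 5 and 2 domains in DMS153, 3 and 2 in H209 and 2 and 1 in MRC5, and window 6 held 13, 10 and 11.

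Boundaries, merged where ends lay within 20 kb, numbered 121 for DMS153, 100 for H209 and 95 for MRC5. Of these, 72 recurred within 40 kb in all 3 lines. DMS153 had 23 boundaries of its own, H209 9 and MRC5 11. Of the DMS153 boundaries, 89 (73.6%) lay near one of H209 and 81 (66.9%) near one of MRC5, beside 70.0% and 61.2% over the whole lists. Of the MRC5 boundaries, 82 (86.3%) recurred in DMS153 and 74 (77.9%) in H209, beside 79.6% and 74.3%. These boundary shares of the arm were thus above those of the whole lists. Such shares also depend on the length of the other list, here 121 boundaries in DMS153 and 100 in H209. By 80% overlap the order for MRC5 was the opposite, with 36 of 58 domains (62.1%) matched in DMS153 and 40 in H209. Of the domains, 44 of 74 in DMS153 (59.5%) overlapped an H209 domain by at least 80% of each, and 36 of 74 (48.6%) an MRC5 domain, beside 55.9% and 44.2% over the whole lists. The arm lay further from the whole lists for H209 and MRC5, where 40 of 60 H209 domains (66.7%) and 40 of 58 MRC5 domains (69.0%) had such a counterpart in the other line, beside 54.1% and 58.3%. The deposited ends were the same in all 3 lines for 11 domains, and in DMS153 and H209 for 30.

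**Figure D5:**
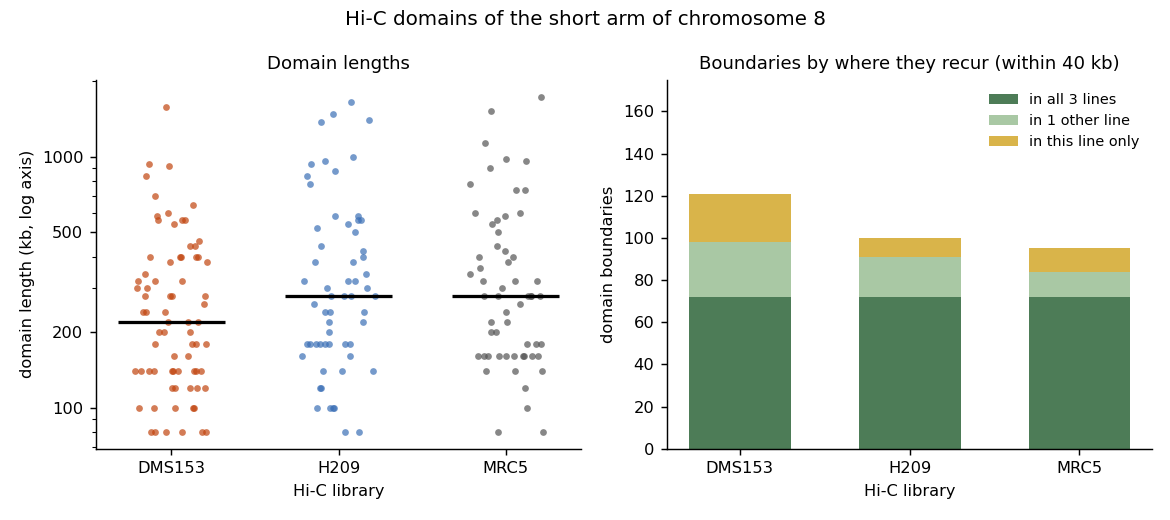
On the left, each point is the length (kb, log axis) of a short-arm domain in the Hi-C library of a line, with a bar at the median of 220, 280 or 280 kb. On the right, stacked bars count the boundaries found in all 3 lines, in 1 other line or in the line alone, with 72 of 121, 100 and 95 in all 3.

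Genes called alike lay in domains that the lines shared as well as in some they did not share at 80% overlap. Among the latter, the MRC5 domain at chr8:42020000-42179998 held PLAT and IKBKB, which fell in both carcinoma lines. In DMS153 and H209 the domain had the same start and ended 80 kb later. There it also held POLB and VDAC3, which were not called against MRC5, although VDAC3 was called lower in DMS153 with median ratio scaling (−1.09). The domains given below that start at chr8:6260000, chr8:21760000, chr8:22280000 and chr8:30020000 were chosen because they held the most genes called 1 way in the list of a line. Like calls within them therefore follow from that choice. The domain at chr8:30020000-30459998 was the same in all 3 lists and held DCTN6, RBPMS and RBPMS-AS1, which fell in both carcinoma lines. The call of DCTN6 in H209 (−1.13) was lost with TPM scaling (−0.94) and when small RNA and mitochondrial genes were left out of the scaling (−0.90). The next, at chr8:30500000-31059998, was also the same in all 3 and held GSR, UBXN8 and PPP2CB, which fell in DMS153, and WRN, which was not called. In window 2, the domain at chr8:6260000-6659998 was the same in DMS153 and MRC5 and ended 20 kb later in H209, and all 7 genes tested in it rose in H209, of which MCPH1 and 2 unnamed transcripts lost their calls with median ratio scaling and with quantile normalization. The domain at chr8:22280000-22459998 was the same in DMS153 and H209 and ended 20 kb earlier in MRC5, and its 6 tested genes, with SORBS3, PDLIM2 and PPP3CC, all fell in DMS153. An MRC5 domain at chr8:21760000-22039998 had no counterpart in the carcinoma lists at 80% overlap. Its 9 tested genes were mixed in DMS153, with 4 higher (XPO7, NPM2, FGF17 and DMTN) and 5 lower (among them FAM160B2, HR and REEP4). The call of XPO7 (1.10) was lost with TPM scaling (0.68), median ratio scaling (0.48) and quantile normalization (0.94), that of FGF17 (1.28) with quantile normalization (0.39), and that of HR (−1.14) when small RNA and mitochondrial genes were left out of the scaling (−0.96). Over all MRC5 domains of the arm, 26 of 66 genes tested (39.4%) fell and 10 (15.2%) rose in DMS153 where the domain was conserved. Where it was not, 17 of 41 (41.5%) fell and 12 (29.3%) rose. For H209 the counts were 20 lower (29.0%) and 15 higher (21.7%) of 69 in conserved domains. In the others they were 17 (44.7%) and 4 (10.5%) of 38. On the whole arm 33.3% fell and 18.6% rose in DMS153, and 29.0% and 18.2% in H209. Among all genes tested, 16.4% fell and 34% rose in DMS153, and 14.9% and 33% in H209. A link between conserved domains and calls was not tested. The domain with FGFR1 started at chr8:38260000 in DMS153 and H209 and 20 kb later in MRC5, and ended at chr8:38579998 in all 3.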

How the data were processed

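RNA of 8 libraries and Hi-C domains of 3 were analysed. Per the file headers, the authors' RNA tables give an FPKM value with confidence limits per gene, used as deposited; Bowtie2, TopHat2 2.1.0, Cufflinks 2.2.0, HOMER 4.8 and hg19 are named in the submitters' processing notes, with settings not given in the sources used here. The deposited domain lists, which have no header, give positions and a score of unstated meaning, used to rank domains in an alternative. FPKM is relative to the whole library, so levels depend on what else it holds. Where titles of RNA libraries read DM153, the cell line field, DMS153, was followed.

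The test covered 19066 genes with 1 FPKM or more in at least 2 libraries, in 1 limma 3.58.1 fit (R 4.3.3) of log2(FPKM + 1) with a mean per line, 5 residual degrees of freedom and a variance trend, with Benjamini-Hochberg adjustment over all. The fit was tested on simulated data. The members, lists and tests were chosen with earlier results of these data known. Named genes were the 8 highest and 8 lowest calls per comparison with no overlap between groups and a mean of at least 5 FPKM, without unnamed clones, small RNA and pseudogene symbols (unless RefSeq, GRCh38.p14, lists the symbol as protein coding), the top gene of each window and line, up to 4 per list, the members of leading domains and the most even genes; others named were chosen after their values were seen. Boundaries were merged within 20 kb and shared within 40 kb, and domains were conserved at 80% reciprocal overlap. A further marker of the carcinoma lines is not reported here and was left out of the summed level. Same-numbered libraries deviated together with r between −0.012 and 0.12, so the numbers were not taken as pairs.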

Additional observations from a re-analysis of the deposited data

How the results depend on the processing

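Alternatives were another pseudocount, filters, scalings, variance models, each library left out, and other windows, tolerances and scores; where a value moved, the cause was not tested. The median of the arm relative to all genes, −0.80 for DMS153 and −0.58 for H209 against MRC5 and −0.11 for DMS153 against H209, was −1.07, −0.81 and −0.17 with a pseudocount of 0.1 and −0.99, −0.66 and −0.16 with a filter of 5 FPKM. Without a filter, which adds genes near 0, it was −0.0211, −0.0249 and 0. Against MRC5 it was −0.87 and −0.70 with TPM scaling and −0.86 and −0.72 with median ratio scaling, −0.90 in DMS153 with quantile normalization, and in H209 −0.63 without small RNA and mitochondrial genes in the scaling and −0.62 over named genes. With each library left out it ranged from −0.84 to −0.78, −0.59 to −0.52 and −0.177 to −0.0559, the last without H209 replicate 1. Counts of calls changed most between the carcinoma lines, where 29 higher and 32 lower became 45 and 52 with a pseudocount of 0.1, 17 higher with a filter of 5 FPKM, 18 higher with quantile normalization, and 87 lower with TPM and 21 lower with median ratio scaling. Higher calls against MRC5 became 27 in DMS153 with quantile normalization and 25 in H209 with a filter of 5 FPKM. The replicate block gave 43 higher and 77 lower in DMS153, 42 and 67 in H209 and 28 and 35 between them, and not every library deviated most like its own number. Of 261 comparisons of 87 named genes, 74 changed call under some alternative and 0 reversed. Single genes mentioned in the text outside these 87 were not followed under the alternatives. Window medians ranged over 1.37, 1.95 and 0.77 on the log2 scale in the 3 comparisons, over 2.36, 3.06 and 1.61 with windows of 2.5 Mb and over 0.88 in DMS153 against MRC5 with windows of 10 Mb. With the domains of the higher scores only, shared boundaries numbered 45 and 51 of 86 for DMS153 with H209 and MRC5, 45 and 36 of 51 for H209 with DMS153 and MRC5, and 53 and 37 of 58 for MRC5 with DMS153 and H209; for DMS153, MRC5 then shared more than H209, whereas with all domains H209 did. Genes under 1 FPKM are limited by depth: deposited limits of short-arm genes of 0.1 to 1 FPKM lay 29.6% to 44.5% from the value.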

Other observations

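Other transporters, receptors and signalling genes of the short arm differed between the lines as well; apart from SLC7A2 and SLC39A14, the genes of this paragraph were chosen after their values were seen. SLC7A2, a transporter of cationic amino acids, stood at 86.2, 64.0 and 77.4 FPKM in MRC5, 3.48, 2.74 and 3.91 in DMS153 and 0.653 and 0.674 in H209. It fell in both carcinoma lines and was higher in DMS153 than in H209 by 1.39 on the log2 scale (SE 0.14, limma adjusted p = 2.5e-05). SLC39A14, a zinc and iron importer, stood at 30.2 to 36.0 FPKM in MRC5, 4.39 to 4.88 in DMS153 and 11.3 and 8.59 in H209, and SLC25A37, the iron importer mitoferrin of mitochondria, at 16.9 to 17.9, 5.35 to 5.83, and 4.12 and 4.34. All carcinoma libraries lay below all MRC5 libraries for these genes, and limma called each lower in both lines. SLC25A37 overlaps the gene FP15737 by 2818 bases, so fragments in that stretch could belong to either.

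FZD3, a Wnt receptor used in axon guidance, rose from 0.00945 to 0.0349 FPKM in MRC5 to 3.97, 5.10 and 3.73 in DMS153 and 5.95 and 4.62 in H209, while SFRP1, the Wnt inhibitor described above, fell. EXTL3, an enzyme of heparan sulfate synthesis, rose from 14.1 ± 0.977 FPKM (SD, n = 3) in MRC5 to 41.2 to 48.0 in DMS153 and 36.0 and 31.6 in H209. MSRA, which repairs oxidised methionine, fell from 7.74 to 8.41 FPKM to 0.808 to 0.927 in DMS153 and 0.394 and 0.366 in H209, and IKBKB, a kinase that activates NF-kappaB, fell from 24.8 to 25.4 FPKM to 8.18 to 9.75 and to 10.8 and 10.0. Each of these 4 genes was called by limma in both comparisons with MRC5, and no carcinoma library overlapped the MRC5 libraries.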
